A study of Mus musculus with 2 samples.

Results

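*Ccr2*, *Cxcr2* and *Cxcr4*, which encode chemokine receptors, are 3 of the 11691 genes in the single-cell table of this study. They were chosen by name for a comparison of *Cpa3*-high and *Cpa3*-low cells, with earlier results of these data known. In all, 12 chemokine receptor genes of a fixed list, these 3 included, were in the table. The cells came from C57/BL6 conceptuses at E8.5, with 5 to 7 somite pairs. Intraembryonic tissues (Em-Ex) and yolk sacs (YS-Ex) were separated and cultured as explants for 9 to 10 days. Both cultures received SCF, IL-3 and FLT3 ligand, each at 100 ng/ml. From each culture, cells with CD31, CD45 and c-Kit but no CD41 on their surface were sorted, and tissue of many conceptuses was pooled into 1 droplet library per culture. No perturbation was applied, and tissue of origin is the difference between the groups. With 1 library per group and cells that are not replicates, no test was run. The 95% intervals, given in brackets, cover counting error only, and a difference between the libraries cannot be told apart from a difference between 2 preparations.

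Chemokine receptors are membrane proteins that couple to inhibitory G proteins and steer cells along gradients of small secreted chemokines. CCR2 binds CCL2 and its relatives and is known for the release of monocytes from bone marrow. CXCR2 binds the chemokines that recruit neutrophils. CXCR4 binds CXCL12 and holds stem cells, progenitors and immature neutrophils in the marrow, and CXCR2 acts against this retention in neutrophils. Mast cells, which need KIT and its ligand SCF, carry the granule protease carboxypeptidase A3, encoded by *Cpa3*.

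All 3 genes are protein-coding. In RefSeq on GRCm38.p6, the build that mm10 names, *Ccr2* lies at chr9:124101918-124109140 on the plus strand. *Cxcr2* lies at chr1:74153994-74161246 on the plus strand, and *Cxcr4* at chr1:128588199-128592299 on the minus strand. The bases upstream of *Cxcr2* (chr1:74153744-74153988) and *Cxcr4* (chr1:128592300-128592549) are shown because the UMIs of both genes lay mostly in the same clusters of cells, as described further on. Capitals mark matches on either strand. The motifs searched were the PU.1 core GAGGAA, the motif AGATAA of GATA factors, the TATA box (spelled TATAAA) and the CCAAT box (those same letters).
Cxcr2: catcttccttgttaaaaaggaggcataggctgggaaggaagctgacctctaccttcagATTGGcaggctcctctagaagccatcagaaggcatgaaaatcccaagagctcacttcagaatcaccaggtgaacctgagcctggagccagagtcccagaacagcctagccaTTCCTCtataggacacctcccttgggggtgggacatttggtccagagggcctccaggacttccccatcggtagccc
Cxcr4: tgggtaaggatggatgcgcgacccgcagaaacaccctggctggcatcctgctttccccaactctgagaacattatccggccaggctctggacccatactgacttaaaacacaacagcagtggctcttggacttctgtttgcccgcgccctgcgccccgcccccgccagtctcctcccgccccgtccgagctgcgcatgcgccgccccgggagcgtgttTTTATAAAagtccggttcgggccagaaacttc
The *Cxcr2* stretch held a CCAAT box and a PU.1 core, each on the opposite strand, with first bases 192 and 81 bases before the start. The *Cxcr4* stretch held overlapping TATA matches on both strands, 30 and 32 bases before the start. In the 250 bases before the start of 32851 RefSeq genes, a PU.1 core stood in 23.3%, a CCAAT box in 33.8%, a TATA box in 12.4% and a GATA motif in 9.99%. No motif of the 4 was shared by both stretches. These are matches of letters, and the counts hold no measure of binding. The stretch before the *Ccr2* start in this table overlaps an exon of another *Ccr2* transcript and is not shown.

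The deposited table held raw counts of unique molecular identifiers (UMIs), each standing for a captured transcript. A filter on genes per cell and mitochondrial UMIs, set as the methods state it, kept 3071 of the 3504 deposited barcodes of Em-Ex and 2087 of the 3037 of YS-Ex. It removed 433 and 950 barcodes, which the cell numbers given by the authors still include. The cells kept had medians of 12341 and 11729 UMIs. Levels are given as CPM, the UMIs of a gene scaled to a total of 1e+06 UMIs pooled over the cells named. A cell with at least 40 *Cpa3* UMIs per 10000 of its UMIs was called *Cpa3*-high, and all others *Cpa3*-low. This gave 2200 *Cpa3*-high and 871 *Cpa3*-low cells in Em-Ex, and 1946 and 141 in YS-Ex. The classes are ranges of 1 gene and not cell types, and 882 Em-Ex and 312 YS-Ex cells had 20 to 80 *Cpa3* UMIs per 10000. Of the sort genes, *Kit* was at 340 CPM in *Cpa3*-high and 123 CPM in *Cpa3*-low Em-Ex cells, *Ptprc* (CD45) at 44.6 and 52.4 CPM, *Pecam1* (CD31) at 54.7 and 34.3 CPM, and *Itga2b* (CD41, selected against) at 22.9 and 4.88 CPM. Barcodes found in both libraries numbered 35.

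*Ccr2* was detected broadly and in both libraries. It had 3773 UMIs in Em-Ex, at 88.3 CPM (85.5 to 91.1), in 36.3% of cells. It had 8244 UMIs in YS-Ex, at 305 CPM (298 to 312), in 54.6% of cells. The pooled level was 3.46-fold (3.32 to 3.59) higher in YS-Ex. *Cxcr2* and *Cxcr4* were sparse. In Em-Ex, *Cxcr2* had 64 UMIs in 53 cells (1.73%) and *Cxcr4* had 73 UMIs in 60 cells (1.95%), with at most 3 UMIs of either in a cell.

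In YS-Ex, *Cxcr2* and *Cxcr4* were listed at 0. Within a library, no gene of the table has UMIs in 1 to 29 barcodes, so this listing is not a count of 0, and no ratio to Em-Ex is given. It places each gene in at most 29 of 3037 YS-Ex barcodes (0.955%). Over the 3504 deposited Em-Ex barcodes, *Cxcr2* was in 68 (1.94%) and *Cxcr4* in 80 (2.28%). The libraries hold the *Cpa3* classes in different parts, however. If YS-Ex barcodes carried the genes at the shares of the Em-Ex classes (5.80% of *Cpa3*-low and 0.324% of *Cpa3*-high barcodes for *Cxcr2*, 7.25% and 0.202% for *Cxcr4*), its 204 *Cpa3*-low and 2833 *Cpa3*-high barcodes would give 21.01 barcodes with *Cxcr2* and 20.53 with *Cxcr4*. Both numbers are under 30, and such genes would have been listed at 0. The table therefore does not show whether YS-Ex cells of the same *Cpa3* class differed from Em-Ex cells in these receptors.

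The receptors lay on opposite sides of the *Cpa3* limit. *Ccr2* was lower in *Cpa3*-low cells of both libraries. In Em-Ex it was at 26.4 CPM (23.9 to 29.1) in *Cpa3*-low and 123 CPM (119 to 127) in *Cpa3*-high cells, 4.66-fold (4.20 to 5.17) lower, and was detected in 19.1% and 43.1% of cells. In YS-Ex it was at 77.2 CPM (64.9 to 91.2) and 321 CPM (314 to 328), 4.16-fold (3.52 to 4.96) lower, and was detected in 29.1% and 56.5% of cells. For comparison, 1.67% of 11324 genes in Em-Ex and 0.878% of 10701 genes in YS-Ex were 4-fold or more higher in *Cpa3*-high cells, among genes with at least 30 UMIs. In both classes the YS-Ex level was the higher one, 2.92-fold (2.39 to 3.55) in *Cpa3*-low and 2.61-fold (2.51 to 2.72) in *Cpa3*-high cells. The libraries filled different clusters of each class, as described below. Only *Cpa3*-low cluster 1 (92 Em-Ex and 58 YS-Ex cells) had at least 20 *Cpa3*-low cells of each library. The YS-Ex level within it was 0.777 times (0.478 to 1.23) that of Em-Ex. Clusters with fewer cells went both ways. YS-Ex was higher in cluster 9, at 214 CPM (158 to 283) against 111 CPM (84.7 to 142), and in cluster 5, at 95.6 CPM (55.7 to 153) against 12.6 CPM (8.44 to 18.1). It was lower in cluster 11, at 54.1 CPM (35.6 to 78.6) against 130 CPM (90.8 to 181).

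*Cxcr2* and *Cxcr4* were higher in *Cpa3*-low cells of Em-Ex. *Cxcr2* had 56 UMIs in 45 *Cpa3*-low cells (5.17%, 3.64 CPM) and 8 UMIs in 8 *Cpa3*-high cells (0.364%, 0.292 CPM). The ratio of levels was 12.47 (5.91 to 30.3). *Cxcr4* had 68 UMIs in 56 *Cpa3*-low cells (6.43%, 4.42 CPM) and 5 UMIs in 4 *Cpa3*-high cells (0.182%, 0.183 CPM), a ratio of 24.2 (9.89 to 77.0). In Em-Ex, 6.79% of genes were 4-fold or more higher in *Cpa3*-low cells, and the median gene differed by 0.27 on the log2 scale in that direction. *Cpa3*-low Em-Ex cells were also deeper, with a median of 16935 against 11246 UMIs. With each cell thinned to 4000 UMIs, *Cxcr2* was in 0.918% (0.397 to 1.80) and 0.182% (0.0496 to 0.465) of cells, and these intervals overlap. *Cxcr4* was in 1.38% (0.714 to 2.39) and 0.0455% (0.00115 to 0.253), which do not. Free RNA in droplets can also give UMIs in cells that do not express a gene, and its part in these shares was not tested.

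Over finer steps of *Cpa3*, the 3 genes changed in different ways. In Em-Ex, *Ccr2* was in 12.8% of the 538 cells with fewer than 5 *Cpa3* UMIs per 10000, in 27.2% at 5 to 20, in 69 of 230 cells at 20 to 40, and in 32.1% at 40 to 80, 43.0% at 80 to 160 and 53.9% at 160 or more. Its level went from 14.7 to 195 CPM across the same steps. In YS-Ex the share was 35.0% in the lowest step, which held 40 cells, 26.4% at 20 to 40 and 62.3% at 160 or more, so that the lowest share was not in the lowest step, although the intervals of the 3 lowest steps overlap. All 56 *Cxcr2* UMIs of *Cpa3*-low Em-Ex cells lay below 5 *Cpa3* UMIs per 10000, in 8.36% of those cells. None was found in the 103 cells at 5 to 20, which allows a share with a UMI of up to 2.91% by 3 counts, or in the 230 cells at 20 to 40, which allows up to 1.30%. The exact intervals reach 3.52% and 1.59%. *Cxcr4* was in 9.29% of cells below 5, 3.88% (1.07 to 9.65) at 5 to 20 and 0.870% at 20 to 40. At 5 to 20 this is 4 cells, and the exact interval overlaps that of *Cxcr2* (0 to 3.52). Median depth also went from 19889 UMIs below 5 to 11349 at 5 to 20, and its part was not tested.

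**Figure D1:**
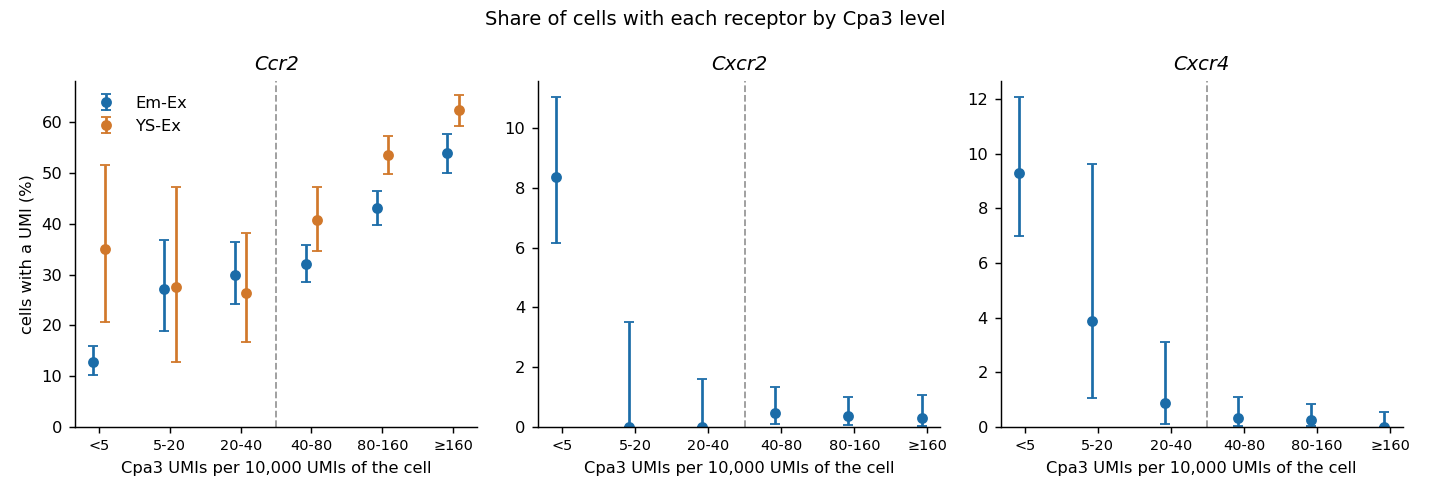
Share of cells with a UMI of each receptor (y axis, percent) by *Cpa3* UMIs per 10000 UMIs of the cell (x axis), with exact 95% intervals for counting error; the dashed line is the limit between *Cpa3*-low and *Cpa3*-high. In Em-Ex the share with *Ccr2* goes from 12.8% to 53.9% with rising *Cpa3*, while *Cxcr2* (8.36%) and *Cxcr4* (9.29%) are highest below 5. *Cxcr2* and *Cxcr4* are listed at 0 in YS-Ex and not drawn there.

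The *Cpa3*-low cells were clustered without the 3 receptor genes, which gave 14 clusters. In 10 of them the summed level of 12 mast cell genes was under 10000 CPM (mast-gene-poor, 576 Em-Ex and 59 YS-Ex cells). The other 4 (mast-gene-rich, 295 and 82 cells) kept high mast cell genes despite low *Cpa3*. All 56 *Cxcr2* UMIs and 67 of 68 *Cxcr4* UMIs of *Cpa3*-low Em-Ex cells were in the mast-gene-poor clusters, where 7.81% and 9.55% of cells had them. In the mast-gene-rich cells *Cxcr2* was in 0 of 295, which allows a share with a UMI of up to 1.02% by 3 counts (1.24% by the exact interval), and *Cxcr4* was in 1. These Em-Ex cells were shallower, with a median of 11424 against 19902.5 UMIs, and the part of depth was not tested. *Ccr2* ran the other way in Em-Ex, at 19.9 CPM (17.4 to 22.6) in mast-gene-poor and 45.3 CPM (38.9 to 52.4) in mast-gene-rich cells. In YS-Ex it was at 93.3 CPM (75.5 to 114) and 55.9 CPM (40.4 to 75.3), the opposite order. The mast-gene-poor cells were of different clusters, with 37 of 59 YS-Ex cells but 48 of 576 Em-Ex cells in clusters 9 and 11. These 2 clusters together were at 104 CPM in YS-Ex and 117 CPM in Em-Ex, though cluster 9 was higher in YS-Ex and cluster 11 in Em-Ex. The other mast-gene-poor cells were at 65.6 CPM (39.5 to 102) in YS-Ex and 12.4 CPM (10.3 to 14.7) in Em-Ex.

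*Cxcr2* lay in 5 mast-gene-poor clusters of Em-Ex, apart from 1 UMI in cluster 11. Cluster 5 was neutrophil progenitor-like, led by the granule protease genes *Elane*, *Ctsg*, *Mpo* and *Prtn3*, and had *Cxcr2* at 6.52 CPM (3.65 to 10.8) in 13.8% of 94 cells. Cluster 2, which was led by *Klrd1*, *Cd7*, *Ccr9* and *Il7r*, had it at 5.82 CPM (3.18 to 9.76). Clusters 3 (*Limch1*, *Hoxa5*), 7 (the mitotic genes *Plk1* and *Ccnb1*, with *Hoxa9*) and 8 (*Wfdc17*, *Mycn*, *Hoxa9*) were at 5.82, 5.13 and 5.54 CPM. The intervals of these 5 clusters overlap, and no order among them can be read. Cluster 9, in which *S100a8*, *S100a9* and *Mmp8* of neutrophils and *Mrc1* and *Msr1* of macrophages led together, had 0 *Cxcr2* UMIs in 35 cells, which allows up to 5.45 CPM by 3 counts. Its exact interval reaches 6.70 CPM and overlaps those of the 5 clusters. The erythroid-like cluster 13, led by *Klf1* and globins, and the stromal-like cluster 12, led by *Acta2*, *Dcn* and *Sparc*, had 0 UMIs in 25 and 23 cells.

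*Cxcr4* was found in the same 5 clusters and in some others. It was at 8.31 CPM (5.07 to 12.8) in cluster 2, 6.96 CPM (3.98 to 11.3) in neutrophil progenitor-like cluster 5, 4.62 CPM in cluster 8, 3.70 CPM in cluster 3 and 2.85 CPM in cluster 7. Cluster 9 had it at 9.08 CPM (2.95 to 21.2), from 5 UMIs. The highest value, 16.0 CPM (6.44 to 33.0), was in cluster 14, in which *Prtn3* stood beside *Cpa3* and *Mcpt1*. That value rests on 7 UMIs in 20 Em-Ex cells, and 4 of the cluster's 22 cells had barcodes found in both libraries. All these intervals overlap.

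**Figure D2:**
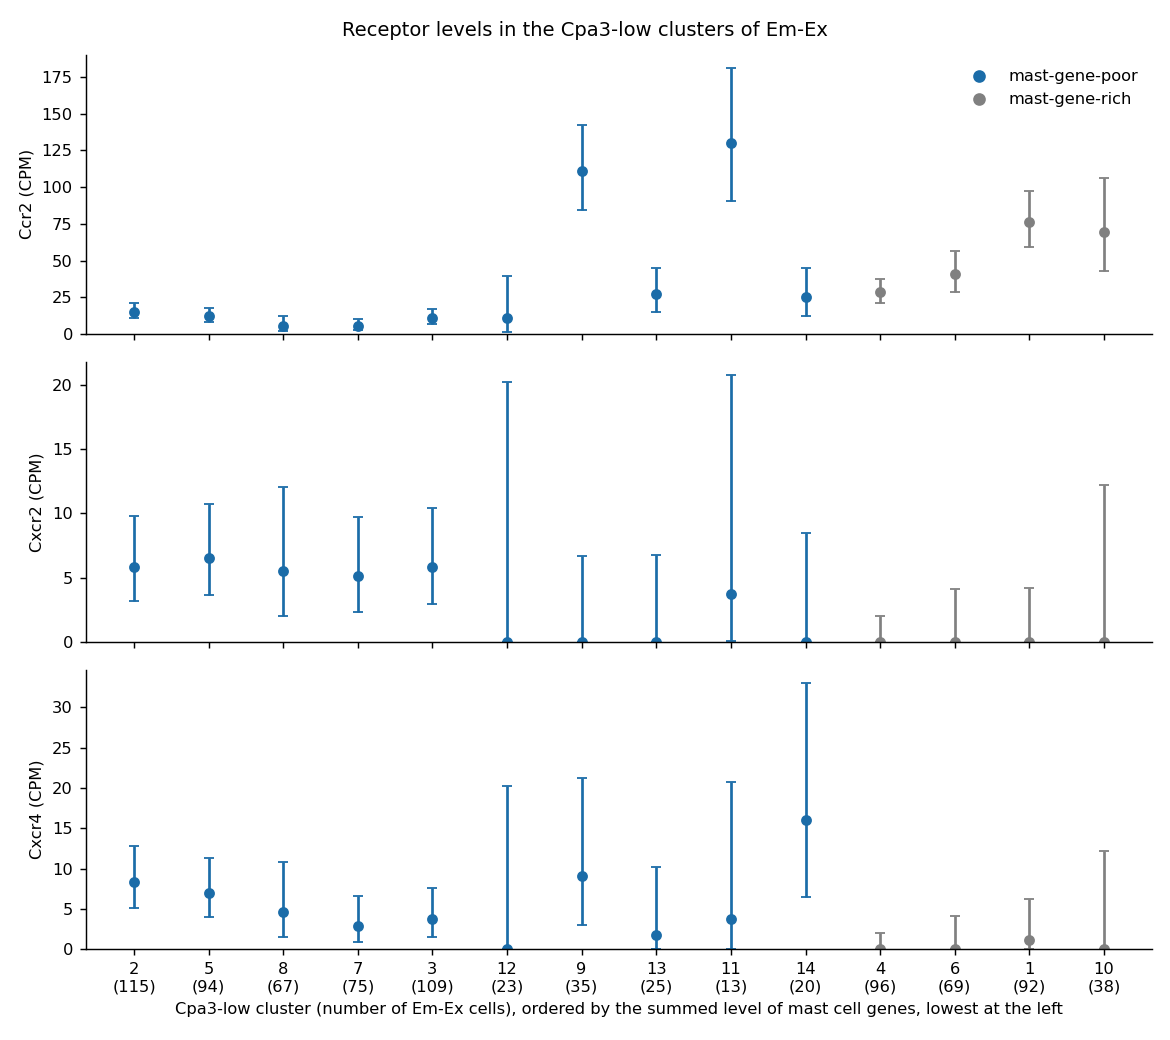
Pooled level (CPM, y axes) of each receptor in the Em-Ex cells of each *Cpa3*-low cluster, ordered from the lowest summed level of mast cell genes, with exact Poisson 95% intervals. *Cxcr2* sits between 5.13 and 6.52 CPM in clusters 2, 5, 8, 7 and 3 and at 0 in all 4 mast-gene-rich clusters (grey), while *Ccr2* is highest in clusters 9 (111 CPM) and 11 (130 CPM).

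Among the *Cpa3*-low clusters of Em-Ex, *Ccr2* was highest in 2 of the mast-gene-poor ones. Cluster 9 had it at 111 CPM (84.7 to 142) in 35 Em-Ex cells and 214 CPM (158 to 283) in 15 YS-Ex cells, which was also the cluster with the CCR2 ligands described below. Cluster 11, led by replication histone genes such as *Hist1h1b* with *Cd3g* and *Itga4*, had 130 CPM (90.8 to 181) in 13 Em-Ex and 54.1 CPM (35.6 to 78.6) in 22 YS-Ex cells. Clusters 2, 3, 5, 7 and 8, which held most *Cxcr2* and *Cxcr4*, had *Ccr2* at 5.54 to 15.4 CPM in Em-Ex. In YS-Ex, where these clusters held few cells, cluster 5 was at 95.6 CPM (55.7 to 153) from 17 UMIs in 9 cells, above cluster 11.

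*Cpa3*-high cells held 89.2% of the *Ccr2* UMIs in Em-Ex and 98.3% in YS-Ex. Its low levels elsewhere were set beside mast cell genes in the same Em-Ex cells. In clusters 2, 3, 5, 7 and 8, the mast cell genes *Cpa3*, *Cma1*, *Tpsb2*, *Hdc* and *Cyp11a1* stood at 0.889% to 1.59% of their own levels in *Cpa3*-high cells. *Cma1*, a chymase gene, was at 1.32%, 1.32%, 1.33%, 1.43% and 1.32% there. *Ccr2* stood at 12.5%, 9.04%, 10.3%, 4.63% and 4.51% of its *Cpa3*-high level in these clusters, above all 5 mast cell genes in each. Among all mast-gene-poor Em-Ex cells, however, the 87 with *Ccr2* had more *Cpa3*, at 504 against 212 CPM in the 489 without, and more of the mast cell list, at 1006 against 700.4 CPM. These cells mix clusters. Clusters 11 and 14, with *Cpa3* at 1270 and 1716 CPM in Em-Ex, had *Ccr2* in 9 of 13 and 6 of 20 Em-Ex cells. The part of cluster membership was not tested. In cluster 9 *Ccr2* stood at 90.1% of its *Cpa3*-high level, beside 2.14% for *Cma1*. In cluster 14, which kept mast cell genes, *Ccr2* at 20.5% was close to *Hdc* at 19.2% and *Cma1* at 18.6%. Cluster 11 kept some of them. It had *Ccr2* at 106% beside *Cyp11a1* at 22.6%, *Hdc* at 13.2% and *Cpa3* at 9.76%, with *Cma1* at 1.47% and *Tpsb2* at 1.37%. *Cpa3* and the mast cell list, which holds *Cma1*, *Tpsb2* and *Hdc*, took part in choosing these cells. *Cyp11a1* was in neither, but it could enter the clustering, from which *Ccr2* was left out. The comparison with *Ccr2* is therefore a description. In stromal-like cluster 12, *Ccr2* had 2 UMIs in 1 of 23 cells (4.35%, with a median of 6357 UMIs in the whole cluster), and in erythroid-like cluster 13 it had 15 UMIs in 2 of 25 cells.

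**Figure D3:**
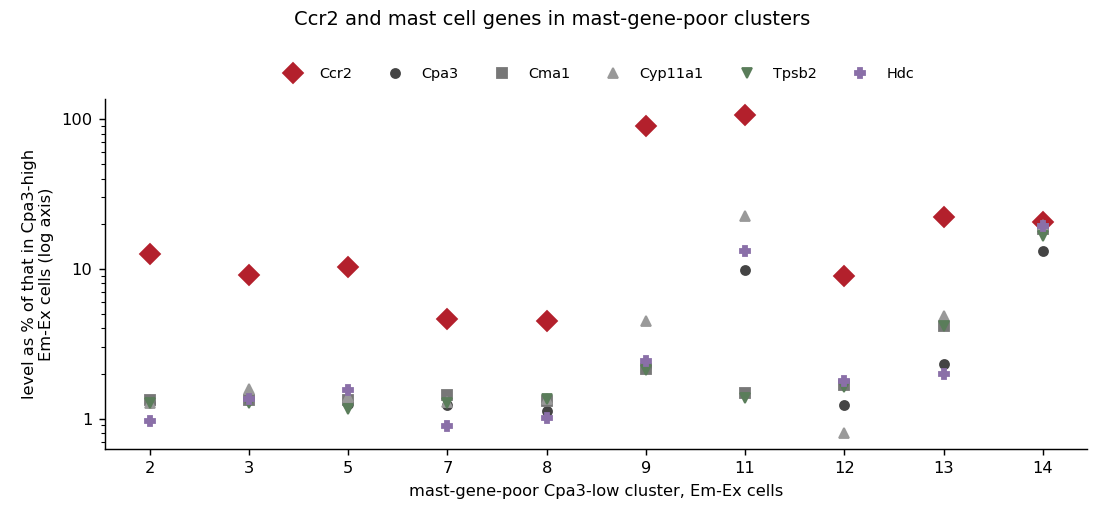
Level of *Ccr2* (red diamonds) and of 5 mast cell genes in each mast-gene-poor cluster, as a percent of the level in *Cpa3*-high Em-Ex cells (log axis). The mast cell genes sit near 1% in clusters 2, 3, 5, 7 and 8, below *Ccr2* at 4.51% to 12.5%, and in cluster 14 all genes lie between 13.2% and 20.5%.

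Among *Cpa3*-high cells, *Ccr2* was unevenly spread. In Em-Ex, 1252 of 2200 cells had none, 328 had 1 UMI, 362 had 2 to 4, 188 had 5 to 9 and 70 had 10 or more, up to 26. In YS-Ex, 847 of 1946 cells had none, 195 had 1, 309 had 2 to 4, 275 had 5 to 9 and 320 had 10 or more, up to 40. The 10% of cells with the most *Ccr2* UMIs held 55.2% of them in Em-Ex and 46.0% in YS-Ex. The variance over the mean was 5.08 and 9.32, and 2.44 and 3.24 with cells thinned to 4000 UMIs, which left out 22 shallower YS-Ex cells.

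The clusters of *Cpa3*-high cells, also made without the receptor genes, differed widely in *Ccr2*. The highest was cluster 4, with 603 CPM (584 to 623) in 489 YS-Ex cells, of which 84.9% had *Ccr2*. Its leading genes beside *Ccr2* were *Penk*, *Layn*, *Btg2* and *Vegfa*. Cluster 7, led by *Hbb-bt*, *Cd3g*, *Pdgfrb* and *Itga4*, was the one with many cells of both libraries and high *Ccr2*, at 470 CPM (417 to 528) in 47 Em-Ex cells and 430 CPM (412 to 449) in 300 YS-Ex cells. The ratio of YS-Ex to Em-Ex within it was 0.915 (0.808 to 1.04). At the other end, YS-Ex cluster 8, led by *Igf2*, *H19*, *Mcpt2* and *Mcpt4*, was at 55.3 CPM (48.0 to 63.3). In cluster 3, led by mitotic genes, *Ccr2* was at 59.8 CPM in Em-Ex cells and at 32.7 CPM in 40 YS-Ex cells. The YS-Ex level there was 0.547 times (0.331 to 0.855) that of Em-Ex.

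The 2.61-fold higher *Ccr2* of YS-Ex among all *Cpa3*-high cells was thus not seen within the 2 clusters that both libraries filled with at least 20 cells. In cluster 9, which had 12 YS-Ex cells, *Ccr2* was at 452 CPM (341 to 587) in these and 181 CPM (165 to 199) in 255 Em-Ex cells. Clusters 4 and 7 held 489 and 300 of the 1946 *Cpa3*-high YS-Ex cells, and 7 and 47 of the 2200 Em-Ex cells. The libraries were clustered together with no correction between them, and the other 8 clusters were nearly all of 1 library.

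**Figure D4:**
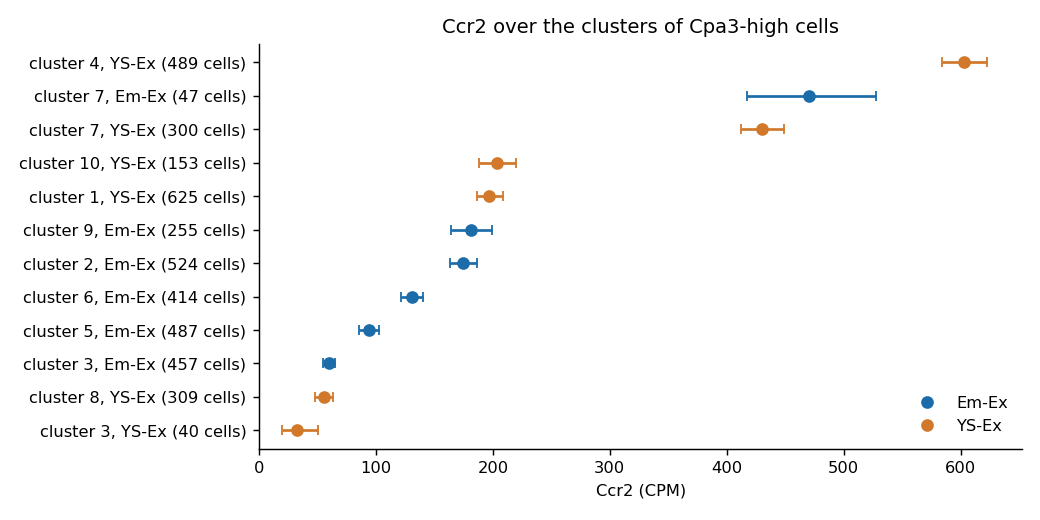
Pooled *Ccr2* level (CPM, x axis) in each cluster of *Cpa3*-high cells with at least 20 cells of the library, with exact Poisson 95% intervals. Levels run from 32.7 CPM (cluster 3, YS-Ex) to 603 CPM (cluster 4, YS-Ex), and the Em-Ex (470) and YS-Ex (430) values of cluster 7 lie side by side.

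Genes that varied with *Ccr2* among *Cpa3*-high cells were partly shared by the libraries. By Pearson's correlation of log-normalized counts, 5 of the 10 genes most like *Ccr2* were the same in 2200 Em-Ex and 1946 YS-Ex cells, namely *S100a10*, *Itga4*, *Fut8*, *Btg2* and *Rplp1* (r of 0.24 to 0.31 in Em-Ex and 0.36 to 0.43 in YS-Ex). Of the 10 genes with the lowest r, 6 were shared: *Ctla2a*, *Mcpt4*, *H19*, *Car8*, *Ftl1* and *Syngr1*. The cells share a library and differ in depth, so these are descriptions. *Itga4*, the alpha chain of the integrin VLA-4, was at 10.3 CPM in Em-Ex cells with no *Ccr2* UMI, 22.8 CPM with 1 to 4 and 53.1 CPM with 5 or more. In YS-Ex it was at 49.0, 118 and 214 CPM. *Btg2*, an anti-proliferative gene, was at 11.7, 27.5 and 76.3 CPM in Em-Ex and 23.4, 61.9 and 132 CPM in YS-Ex. *Mcpt4*, a chymase of connective tissue mast cells, went the other way, at 1375, 687 and 199 CPM in Em-Ex and 1809, 596 and 91.7 CPM in YS-Ex. *H19*, an imprinted non-coding RNA, was at 832, 349 and 185 CPM and at 1110, 280 and 72.7 CPM. Cells with 5 or more *Ccr2* UMIs were also deeper, with medians of 12687 against 10716 UMIs (no *Ccr2*) in Em-Ex and 14141 against 10217 in YS-Ex. With cells thinned to 4000 UMIs, r in Em-Ex and YS-Ex was 0.156 and 0.288 for *Itga4* and 0.198 and 0.295 for *Btg2*. It was -0.207 and -0.315 for *Mcpt4* and -0.176 and -0.262 for *H19*. The levels by *Ccr2* UMIs were not thinned, and the part of depth in them was not tested.

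**Figure D5:**
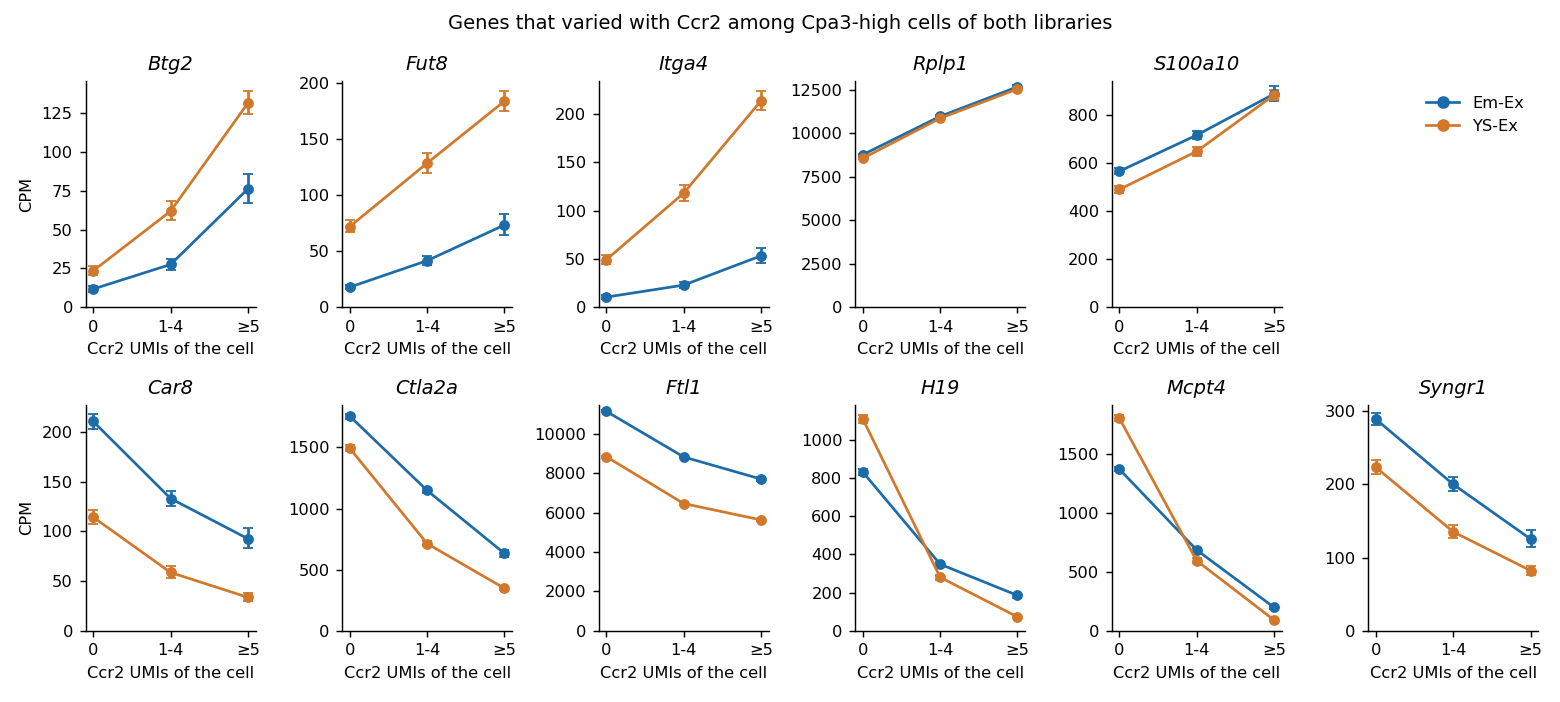
Pooled level (CPM, y axes) in *Cpa3*-high cells with 0, 1 to 4 or 5 or more *Ccr2* UMIs, with exact Poisson 95% intervals. The genes are the 5 that were among the 10 most like *Ccr2* in both libraries and the 6 that were among the 10 least like it in both. *Itga4* goes from 10.3 to 53.1 CPM in Em-Ex and from 49.0 to 214 CPM in YS-Ex, and *Mcpt4* goes down from 1375 to 199 and from 1809 to 91.7 CPM.

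In the 871 *Cpa3*-low Em-Ex cells, the 10 genes most like *Ccr2* were *Gm20186*, *AB124611*, *Tyrobp*, *Fyb*, *Scin*, *Cd3g*, *S100a10*, *Txk*, *Fcer1g* and *Tmsb4x* (r of 0.28 to 0.32). None of them was among the 10 genes most like *Ccr2* in the 141 *Cpa3*-low YS-Ex cells (0 of 10 shared), where their r ran from -0.01 (*AB124611*) to 0.23 (*Fyb* and *S100a10*). For *Cxcr2* they were *BC035044*, *Impdh2*, *D5Ertd605e*, *Bex6*, *Mpo*, *Csf3r*, *Nfe2*, *H2afy*, *Prtn3* and *Id1*, and for *Cxcr4* they were *Igsf6*, *Pglyrp1*, *Clec12a*, *Prtn3*, *Fam107b*, *Plac8*, *Clec5a*, *Ifitm3*, *Gca* and *Hp*. The highest r was 0.195 for both *Cxcr2* and *Cxcr4*, and with cells thinned to 4000 UMIs 0 of the 10 genes stayed among the 10 most like either receptor. In counts this sparse such values are no finding.

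Each pair of receptors was found together in some *Cpa3*-low Em-Ex cells. Of these, 241 of 871 had at least 1 of the 3 receptors, and 0 had all 3. *Ccr2* and *Cxcr2* were together in 7 cells, where independent shares would give 8.58. *Ccr2* and *Cxcr4* were together in 15 (10.7), and *Cxcr2* and *Cxcr4* in 4 (2.89). Over all Em-Ex cells, with the *Cpa3* classes mixed, the counts were 11 (19.2), 17 (21.8) and 4 (1.04). Within the mast-gene-poor cells they were 7 (6.80), 15 (8.31) and 4 (4.30). Independent shares take no account of depth, and cells with a receptor were deeper, as given below. With *Cpa3*-low Em-Ex cells thinned to 4000 UMIs, the counts were 0 (0.689), 1 (1.03) and 0 (0.110).

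Mast-gene-poor Em-Ex cells with a receptor were set beside those without it. The neutrophil progenitor list was higher in cells with each receptor, at 1652 against 1226 CPM for *Cxcr2*, 2106 against 1155 CPM for *Cxcr4* and 1623 against 1194 CPM for *Ccr2*. In cluster 5 this list was at 4192 CPM over both libraries, and the cluster held 94 of the 576 cells. It had 13 of the 45 cells with *Cxcr2*, 15 of the 55 with *Cxcr4* and 17 of the 87 with *Ccr2*. The part of this cluster in the differences was not tested. The erythroid list was lower, at 1443 against 3002 CPM, 1269 against 3063 CPM and 1901 against 3046 CPM, but the 25 cells of erythroid-like cluster 13 weighed heavily in it. Without that cluster it was at 1443 against 1698 CPM for *Cxcr2*, 1218 against 1735 CPM for *Cxcr4* and 1256 against 1761 CPM for *Ccr2*. These values are thus not particular to 1 receptor. The summed neutrophil list, which *S100a8* and *S100a9* belong to, was at 819 CPM in the 55 cells with *Cxcr4*, against 226 CPM in those without, but 97.7% of its UMIs in these cells were in the 3 of them that lay in cluster 9. Without cluster 9 it was at 19.3 against 62.3 CPM for *Cxcr4* and 28.1 against 60.4 CPM for *Cxcr2*. Cells with a receptor were deeper, with medians of 25274 against 19064 UMIs for *Cxcr2*, 25274 against 18890 for *Cxcr4* and 21908 against 19485 for *Ccr2*, and the part of depth in these differences was not tested.

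The 4 genes for CCR2 ligands, *Ccl2*, *Ccl7*, *Ccl8* and *Ccl12*, were higher in pooled *Cpa3*-low cells, where *Ccr2* was lower, through the cells of cluster 9. In YS-Ex 4 of 4 were 4-fold or more higher, beside 2.41% of all genes, and in Em-Ex 1 of 4 was, beside 6.79%. *Ccl12* was at 45.7 against 8.40 CPM in Em-Ex, and in YS-Ex at 180 against 6.46 CPM. Single cells weighed heavily. Without the cell that had 174 of the 321 *Ccl12* UMIs, the *Cpa3*-low YS-Ex level was 83.5 CPM, and without the cell that had 236 of 300 *Ccl8* UMIs, the level of that gene went from 168 to 36.4 CPM, against 8.71 CPM in *Cpa3*-high cells. These UMIs lay mostly in cluster 9, which held 85.2% of the *Ccl2*, 87.2% of the *Ccl7*, 74.5% of the *Ccl8* and 81.3% of the *Ccl12* UMIs of *Cpa3*-low Em-Ex cells in 35 cells. In YS-Ex it held 97.0%, 98.7%, 94.0% and 98.4% in 15 cells. A single Em-Ex cell had 324 of the 836 *Ccl2* UMIs of the cluster, without which the *Cpa3*-low Em-Ex level went from 63.8 to 42.8 CPM, against 21.3 CPM in *Cpa3*-high cells. Without their own leading cells, the Em-Ex levels of *Ccl7* and *Ccl8* went from 30.4 to 18.1 CPM and from 8.91 to 5.14 CPM. Without cluster 9 most of the differences turned. *Cpa3*-low Em-Ex cells then had *Ccl2* at 9.78, *Ccl7* at 4.05 and *Ccl8* at 2.36 CPM, below the 21.3, 10.4 and 4.09 CPM of *Cpa3*-high cells, and *Ccl12* at 8.84 against 8.40 CPM. In YS-Ex, *Ccl2*, *Ccl7* and *Ccl12* were then at 4.49, 1.28 and 3.21 CPM, below 7.25, 3.92 and 6.46 CPM, and *Ccl8* was at 11.5 against 8.71 CPM. The same cluster thus had both *Ccr2* and the transcripts of its ligands. Among *Cpa3*-high cells, *Ccl2* was highest in Em-Ex cluster 5, at 63.1 CPM (56.5 to 70.1). Of 6 genes for CXCR2 ligands only *Cxcl2* was in the table, at 14.6 CPM in *Cpa3*-low and 10.9 CPM in *Cpa3*-high Em-Ex cells. Of its 224 *Cpa3*-low UMIs, 180 lay in cluster 9, and the other *Cpa3*-low cells were at 2.97 CPM. It was listed at 0 in YS-Ex. *Cxcl12* was not in the table. *Mif*, whose product also binds CXCR4, was at 1253 and 454 CPM in Em-Ex and 569 and 353 CPM in YS-Ex.

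Other chemokine receptor genes fell on both sides. Of 9 in Em-Ex, 4 were 4-fold or more higher in *Cpa3*-low cells, among them *Ccr7*, *Ccr9* and *Cxcr3*, and 1 was higher in *Cpa3*-high cells, beside 6.79% and 1.67% of all genes. The latter was *Ccrl2*, a chemerin-binding receptor that does not signal. *Ccr9*, a receptor of gut-homing and plasmacytoid cells, was at 12.7 against 0.256 CPM, with 149 of its 195 *Cpa3*-low UMIs in cluster 2. *Ccr7*, the receptor for lymph node homing, was at 5.98 against 0.146 CPM and was also highest in cluster 2, at 19.5 CPM. *Cxcr3* was at 5.14 against 0.183 CPM and highest in cluster 3, at 19.6 CPM. *Ccr7*, *Ccr9* and *Cxcr3* were listed at 0 in YS-Ex, as *Cxcr2* and *Cxcr4* were. *Ccr1* was at 20.1 against 54.8 CPM in Em-Ex and 53.7 against 32.0 CPM in YS-Ex, *Ccr3* at 0.455 against 1.28 and 1.12 against 4.12, *Ccr8* at 1.496 against 3.98 and 1.12 against 2.22, *Cx3cr1* at 19.4 against 41.9 and 72.7 against 49.4, and *Ccrl2* at 8.39 against 34.3 and 15.7 against 27.5 CPM.

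Of 10 other chemoattractant receptor genes in Em-Ex, 1 was past 4-fold in *Cpa3*-low cells, near the 6.79% of all genes. It was *P2ry12*, an ADP receptor, at 2.21 against 0.110 CPM. The highest were *P2ry14* (33.1 against 88.3 CPM), *C3ar1* (22.3 against 39.5) and *Ltb4r1* (26.8 against 25.1). *S1pr4* (17.3 against 6.03) and *Ptafr* (7.48 against 2.74) followed *P2ry12* in fold, and *S1pr1* was at 6.11 against 9.13 CPM. In YS-Ex 1 of 9 was past 4-fold in this direction, beside 2.41% of all genes.

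Of 26 genes of signalling below the receptors in Em-Ex, 1 was past 4-fold in *Cpa3*-low cells and 0 in *Cpa3*-high cells, beside 6.79% and 1.67% of all genes. It was *Pik3r5*, a subunit of the G protein-activated PI3 kinase, at 2.73 against 0.365 CPM, and the median log2 ratio was -0.19 beside 0.27 for all genes. The GTPase genes *Rac2* (859 against 1672 CPM), *Cdc42* (349 against 547) and *Rac1* (282 against 539) were the highest in *Cpa3*-high cells. *Stat3* (29.99 against 12.8), *Gng12* (59.4 against 158) and *Plcb2* (10.5 against 20.4) were among those with the largest differences. Of 15 genes listed for desensitisation, 2 were past 4-fold in *Cpa3*-low cells, *Rgs3* (4.68 against 0.256 CPM) and the receptor kinase gene *Adrbk2* (2.99 against 0.584). The receptor kinase gene *Grk5* was the 1 past it in *Cpa3*-high cells (1.30 against 5.62). Over all genes the shares were 6.79% and 1.67%. *Rgs2* (321 against 857), *Rgs1* (180 against 518) and *Rgs10* (104 against 206), which encode regulators of G protein signalling, were the highest. *Adrm1* (84.95 against 61.3) is in the list but encodes a proteasome component. In YS-Ex 0 of 25 and 0 of 14 genes of these lists were past 4-fold, beside 2.41% and 0.878% of all genes, and lists this short show nothing by a count of 0.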

How the data were processed

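The authors processed reads of both droplet libraries with bcl2fastq 2.19.1.403 and Cell Ranger 2.0.1, per the submitters' processing notes, which name mm10, and deposited raw UMI counts per gene and cell. The gene annotation is not given in the sources used here. Every barcode named its library. Cells with 1000 to 5000 genes and at most 5% mitochondrial UMIs (13 genes) were kept, leaving 42752370 UMIs in Em-Ex (4120 to 38114 per cell) and 27031627 in YS-Ex (3302 to 34107). Doublets were not otherwise removed.

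Levels were pooled CPM with exact Poisson intervals, shares had exact Clopper-Pearson 95% intervals, and ratios had intervals from the split of counts. The limit allowed by a count of 0 is 3 counts of the total. Counts past 4-fold used genes with at least 30 UMIs. Log-normalized counts (2000 variable genes, 30 principal components, 15 neighbors) were clustered with leidenalg 0.10.2 at resolution 1 in place of pdfCluster, with scanpy 1.11.5, Python 3.11.15, numpy 2.4.6, scipy 1.17.1 and matplotlib 3.10.9. Clusters were named from a fixed marker list, and genes leading a cluster needed 100 UMIs. Sequences were copied from RefSeq tables (GRCm38.p6), and 3 of 3 genes matched by symbol. The steps were tested on simulated data.

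The receptors and gene lists were chosen with earlier results of these data known. Named genes were the receptors, ligands and other chemokine receptors, the 3 highest and 3 with the largest fold either way of other lists, the sort genes, the 10 genes most like each receptor (in at least 5% of cells) and the leading genes of clusters. Some genes that this rule names are not reported here. Chosen after values were seen were the steps of *Cpa3*, the 10000 CPM limit for mast-gene-poor clusters, the 100 UMIs for leading genes, the *Cpa3*-high clusters and correlations, the levels by *Ccr2* UMIs, the mast cell genes set beside *Ccr2*, the cells with against those without a receptor, and the values without clusters 9 or 13 or without single cells. Alternatives were other cell filters, *Cpa3* limits, scalings, thinning, cluster settings, correlation settings and a minimum of 100 UMIs.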

Additional observations from a re-analysis of the deposited data

Results flagged for a closer look

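Receptor UMIs were also present in barcodes outside the cell filter, which the comparisons did not use. In the 433 Em-Ex barcodes removed, *Ccr2* had 531 UMIs (90.3 CPM), *Cxcr2* had 18 UMIs (3.06 CPM) and *Cxcr4* had 24 UMIs (4.08 CPM). In the 950 YS-Ex barcodes removed, *Ccr2* had 3134 UMIs (416 CPM). No empty-droplet level is at hand to set them beside.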

How the results depend on the processing

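No paired analysis was possible because each group has 1 library. Of the values recomputed under alternatives, 103 stayed within the counting interval of the value reported (counts of genes within 1.5 times), 39 did not and 0 ratios changed sign. Counts of cells with 2 receptors did change side of the number that independent shares give. *Ccr2* with *Cxcr2* went from 7 (8.58) to 12 (11.6) over every deposited barcode, and thinned, *Ccr2* with *Cxcr4* went from 15 (10.7) to 1 (1.03) and *Cxcr2* with *Cxcr4* from 4 (2.89) to 0 (0.110). Settings of 2 kinds were behind most of the 39, other *Cpa3* limits and thinning to 4000 UMIs, which lowers every share of cells. The ratios of *Cpa3*-low to *Cpa3*-high cells kept their sign under every alternative run.

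With a mitochondrial limit of 10%, the *Ccr2* level was 93.5 CPM for Em-Ex cells and 330 CPM for YS-Ex cells, and over every deposited YS-Ex barcode 329 CPM. As the mean of per-cell CPM, *Ccr2* had 106 (Em-Ex) and 295 (YS-Ex), *Cxcr2* at 0.959 and *Cxcr4* at 1.16. The log2 ratio of *Ccr2* in Em-Ex was -2.56 at a limit of 20 *Cpa3* UMIs per 10000, -1.74 at 80, -2.92 without cells of 20 to 80 (chosen after seeing the data) and -2.005 thinned. In YS-Ex it was -1.31 at 80 and -1.76 thinned. The thinned log2 ratio of *Cxcr2* was 2.34. At limits of 20 and 80, *Cpa3*-low Em-Ex cells had *Ccr2* in 15.1% and 24.6%, *Cxcr2* in 7.02% and 3.15% and *Cxcr4* in 8.42% and 3.81%, and *Cpa3*-high cells had *Ccr2* in 47.7% at 80. Thinned, *Ccr2* was in 8.61% of *Cpa3*-low and 27.6% of *Cpa3*-high Em-Ex cells and in 20.7% of 121 and 42.9% of 1924 YS-Ex cells, with 20 and 22 shallower cells left out, and *Cxcr2* in 0.918% of *Cpa3*-low Em-Ex cells. *Cxcr4* was in 1.38% and 0.0455%. Cells with both *Ccr2* and *Cxcr2* were then 0. At resolution 0.5 mast-gene-poor clusters held 47.0% of *Ccr2* UMIs of *Cpa3*-low Em-Ex cells. Of the 10 genes most like each receptor, thinning kept 6 for *Ccr2*, 0 for *Cxcr2* and 0 for *Cxcr4*, and Spearman's correlation kept 5 for *Cxcr4*. With a minimum of 100 UMIs, 437 genes in Em-Ex and 115 in YS-Ex were 4-fold higher in *Cpa3*-low cells, and 35 in YS-Ex in *Cpa3*-high cells, against 769, 258 and 94.

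Depth limits the sparse receptors. *Cxcr2* and *Cxcr4* rest on 64 and 73 UMIs, and the intervals overlap among the mast-gene-poor Em-Ex clusters that held UMIs of each.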
